A study of Mus musculus with 6 samples.

Results

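The heat shock chaperone genes Hspa8, Hspa5, Hspa1a, Hspa1b, Hsp90aa1, Hsp90ab1, Hsp90b1, Hspd1, Hspe1 and Dnajb1, were followed in the RNA of exosomes, vesicles that cells shed into their medium. They were taken by gene name from a table of 12384 genes, in which these 10 genes were listed with 24 of the 27544 transcripts, and the value of a gene was the sum over its listed transcripts. The exosomes came from dendritic cells grown from C57BL/6 mouse bone marrow, and the study asked how their long RNAs, long non-coding RNAs in particular, differ with the maturation of the cells. The 3 libraries of the mature group came from cultures of mature cells and the 3 of the immature group from cultures of immature cells. All marrow cells were kept until day 7 in medium with GM-CSF (20 ng/ml) plus IL-4 (10 ng/ml). According to the protocol, cells then received either lipopolysaccharide at 5 µg/ml or PBS for 24 h, were washed, and released exosomes into fresh medium for 48 h; lipopolysaccharide, a bacterial cell wall component, is the usual maturation stimulus. All 6 samples carry the tag untreated, which was not used. Whether replicates are separate cultures or animals is not stated, so p-values reflect only how far these samples scatter, and that scatter may be technical.

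Heat shock proteins bind unfolded or newly made proteins and help them fold. Hsp70 proteins do so in cycles of ATP hydrolysis that J-domain co-chaperones such as Dnajb1 start, and Hsp90 proteins act later, on nearly folded clients that include kinases and receptors. Each compartment has its own set. Cells under protein stress raise some of these genes through heat shock factor 1, and those of the endoplasmic reticulum through the unfolded protein response. Hsc70, the protein of Hspa8, and Hsp90 are among the proteins commonly found in exosomes of dendritic cells; the values below are of RNA, not protein.

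Promoter windows show how the groups of genes differ in sequence. RefSeq windows on GRCm38.p6, running from 250 bases before to 50 after a gene's start, were at hand for 7 of the 10 genes, and 6 are printed 5′ to 3′ on the gene's strand. Hspa1a and Hspa1b are shown because their RNA differed most between the groups, Dnajb1 because its libraries did not overlap either, Hspe1 because its window covers 285 of the bases of a window of its neighbour Hspd1, and Hspa5 and Hsp90b1 as the genes of the endoplasmic reticulum. Capitals mark matches to the heat shock element pairs GAANNTTC or TTCNNGAA, to the 3-unit heat shock element that joins both pairs, or to the endoplasmic reticulum stress element, which begins with the CCAAT box, all searched on both strands.
Hspa1a, chr17:34972107-34972406, minus strand: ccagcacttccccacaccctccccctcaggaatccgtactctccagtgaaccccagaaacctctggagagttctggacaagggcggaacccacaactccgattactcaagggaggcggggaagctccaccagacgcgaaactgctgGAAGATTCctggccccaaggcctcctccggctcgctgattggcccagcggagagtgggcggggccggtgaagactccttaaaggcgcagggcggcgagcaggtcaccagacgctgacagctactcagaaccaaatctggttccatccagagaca
Hspa1b, chr17:34959189-34959488, minus strand: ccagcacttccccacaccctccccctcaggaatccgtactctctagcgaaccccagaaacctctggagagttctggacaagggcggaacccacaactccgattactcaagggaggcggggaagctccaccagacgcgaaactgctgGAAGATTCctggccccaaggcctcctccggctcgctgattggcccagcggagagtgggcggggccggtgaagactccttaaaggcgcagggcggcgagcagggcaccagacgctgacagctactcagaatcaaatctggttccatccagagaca
Dnajb1, chr8:83607925-83608224, plus strand: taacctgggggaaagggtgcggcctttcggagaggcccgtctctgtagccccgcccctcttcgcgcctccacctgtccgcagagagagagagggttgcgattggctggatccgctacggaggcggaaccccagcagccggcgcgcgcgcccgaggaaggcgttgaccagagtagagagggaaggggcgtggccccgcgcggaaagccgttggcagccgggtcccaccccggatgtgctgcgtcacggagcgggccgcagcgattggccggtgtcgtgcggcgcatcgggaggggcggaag
Hspe1, chr1:55087898-55088197, plus strand: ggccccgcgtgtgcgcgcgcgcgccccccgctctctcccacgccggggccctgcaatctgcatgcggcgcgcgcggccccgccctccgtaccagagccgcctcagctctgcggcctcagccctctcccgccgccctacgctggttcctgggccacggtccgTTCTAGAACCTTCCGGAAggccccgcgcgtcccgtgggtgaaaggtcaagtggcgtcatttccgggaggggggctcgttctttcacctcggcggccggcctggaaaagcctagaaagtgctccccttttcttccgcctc
Hspa5, chr2:34771840-34772139, plus strand: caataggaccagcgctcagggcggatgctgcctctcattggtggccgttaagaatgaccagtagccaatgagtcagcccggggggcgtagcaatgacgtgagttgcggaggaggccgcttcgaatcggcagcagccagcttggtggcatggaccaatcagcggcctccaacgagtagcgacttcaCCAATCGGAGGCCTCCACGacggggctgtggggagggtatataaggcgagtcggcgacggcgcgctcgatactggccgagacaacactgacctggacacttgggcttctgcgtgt
Hsp90b1, chr10:86705395-86705694, minus strand: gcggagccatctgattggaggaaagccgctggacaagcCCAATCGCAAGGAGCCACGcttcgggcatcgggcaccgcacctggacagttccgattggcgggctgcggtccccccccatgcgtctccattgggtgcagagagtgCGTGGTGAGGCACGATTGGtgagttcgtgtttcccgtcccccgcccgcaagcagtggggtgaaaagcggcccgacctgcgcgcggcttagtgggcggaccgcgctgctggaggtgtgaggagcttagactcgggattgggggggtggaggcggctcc

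The windows of Hspa1a and Hspa1b differed at 4 of 300 positions, counted from 1 at the 5′ end: C44T, T47C, T249G and C276T, with the base of Hspa1a first. Both held a single GAANNTTC pair, which starts 104 bases before the gene's start, a motif found in 7.86% of all 32851 windows of this length. In the Hspe1 window 2 matches to the 3-unit element overlapped in an 18-base block, that element being present in 0.603% of all windows and TTCNNGAA in 8.52%. The window of Hspd1 that overlaps it holds the same block on the other strand. Hspa5 held 1 match to the endoplasmic reticulum stress element and Hsp90b1 held 2, an element found in 0.119% of all windows. The printed Dnajb1 window held none of these motifs, but 2 matches to CCAAT, the letters of the CCAAT box, which 37.4% of windows hold. A match is a description of the letters and not a site shown to be bound.

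Across the 6 libraries, genes with at least 0.5 FPKM numbered 9057 to 10827 in the mature group and 8054 to 10169 in the immature group. FPKM, fragments scaled by transcript length and by the mapped fragments of the library, carries no read totals, but the spacing of low values put the depth at 0.754 to 1.19 times that of immature library 1. Mature library 1 and immature library 2 stood apart, with mitochondrially encoded transcripts at 0.94% and 2.55% of summed FPKM, against 0.0696% to 0.282% in the other 4 libraries. All 16 dendritic cell markers looked for were listed, and they summed to 3588 to 5530 FPKM in mature and 1973 to 2606 FPKM in immature libraries. Such sums are of FPKM as deposited, in which the median gene was higher in the mature group. The largest values were those of Ccl17, Cd74, H2-Aa, H2-Ab1 and H2-Eb1. Of 15 tested, 5 were higher at an unadjusted p under 0.05 in the limma test below (9.52% of all genes) and 0 lower. Itgax overlapped, at 21.1 to 32.2 FPKM in mature and 7.36 to 54.9 FPKM in immature libraries. Of markers of other cells, 8 of 10 mast cell and basophil genes summed to 31.0 to 68.4 FPKM in mature and 6.47 to 15.4 FPKM in immature libraries. All 5 of them tested were higher at an unadjusted limma p under 0.05, as were 9.52% of all genes. Stromal and endothelial genes, 5 of 8 listed, summed to 16.8 to 31.3 FPKM in mature and 11.02 to 16.4 FPKM in immature libraries, a narrow gap. Of the 4 of them tested, 0 had an unadjusted limma p under 0.05 in either direction. Pecam1, among them, overlapped, at 7.13 to 17.8 FPKM in mature and 6.58 to 15.7 FPKM in immature libraries. The summed levels of macrophage and monocyte (12 of 12 genes listed), neutrophil (12 of 12), erythroid and platelet (8 of 8) and lymphocyte markers (7 of 10) overlapped between the groups. Erythroid and platelet sums were 310 FPKM in mature library 2 and 486 FPKM in immature library 3, against 42.4 to 72.6 FPKM in the other 4. Neutrophil sums were highest in the same libraries, at 2251 and 1419 FPKM, against 248 to 940 FPKM. Of the macrophage and monocyte genes, Cd14 alone had an unadjusted limma p under 0.05. It was at 31.8 to 84.4 FPKM in mature and 4.39 to 5.62 FPKM in immature libraries (limma adjusted p = 0.0344). No listed marker could be at 0 in all 6 libraries, since every listed transcript reached 0.500024 FPKM or more in at least 1. The dendritic and mast cell sums, and narrowly the stromal ones, thus lay apart between the groups, as did Hspa1a, Hspa1b and Dnajb1 below. The part of such cells in the differences below was not tested.

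All 10 chaperone genes passed the filter of 0.5 FPKM in at least 3 libraries. With limma on log2(FPKM + 1), 0 of the 10 differed at a Benjamini-Hochberg adjusted p under 0.05, where 0.185% of the 10277 genes tested were called, all 19 of them higher in the mature group. At an unadjusted p under 0.05, 3 chaperone genes (Hspa1a, Hspa1b and Dnajb1) were higher and 0 lower, against a background of 9.52% of genes higher and 0.224% lower. In the same 3 the groups did not overlap and the mature one was higher, as for 16.7% of all genes, and no chaperone gene lay wholly below, as 0.642% of all genes did. Of the 10 genes 8 had a positive log2 fold change, as did 76.4% of all genes, since the median gene was itself 0.38 higher on this scale in the mature group. The median of the 10 genes was 0.55. After median-of-ratios scaling, which removes that shift, 7 had a positive fold change (51.9% of all genes). At an unadjusted p under 0.05, 2 were then higher (4.67%). Hspe1, at a log2 fold change of -1.28, was lower at that threshold, as were 237 of the 10277 genes tested. With the same scaling 2 lay wholly above (7.6%) and 1, Hspd1, wholly below (6.07%), and 0.117% of all genes passed the adjusted test.

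**Figure D1:**
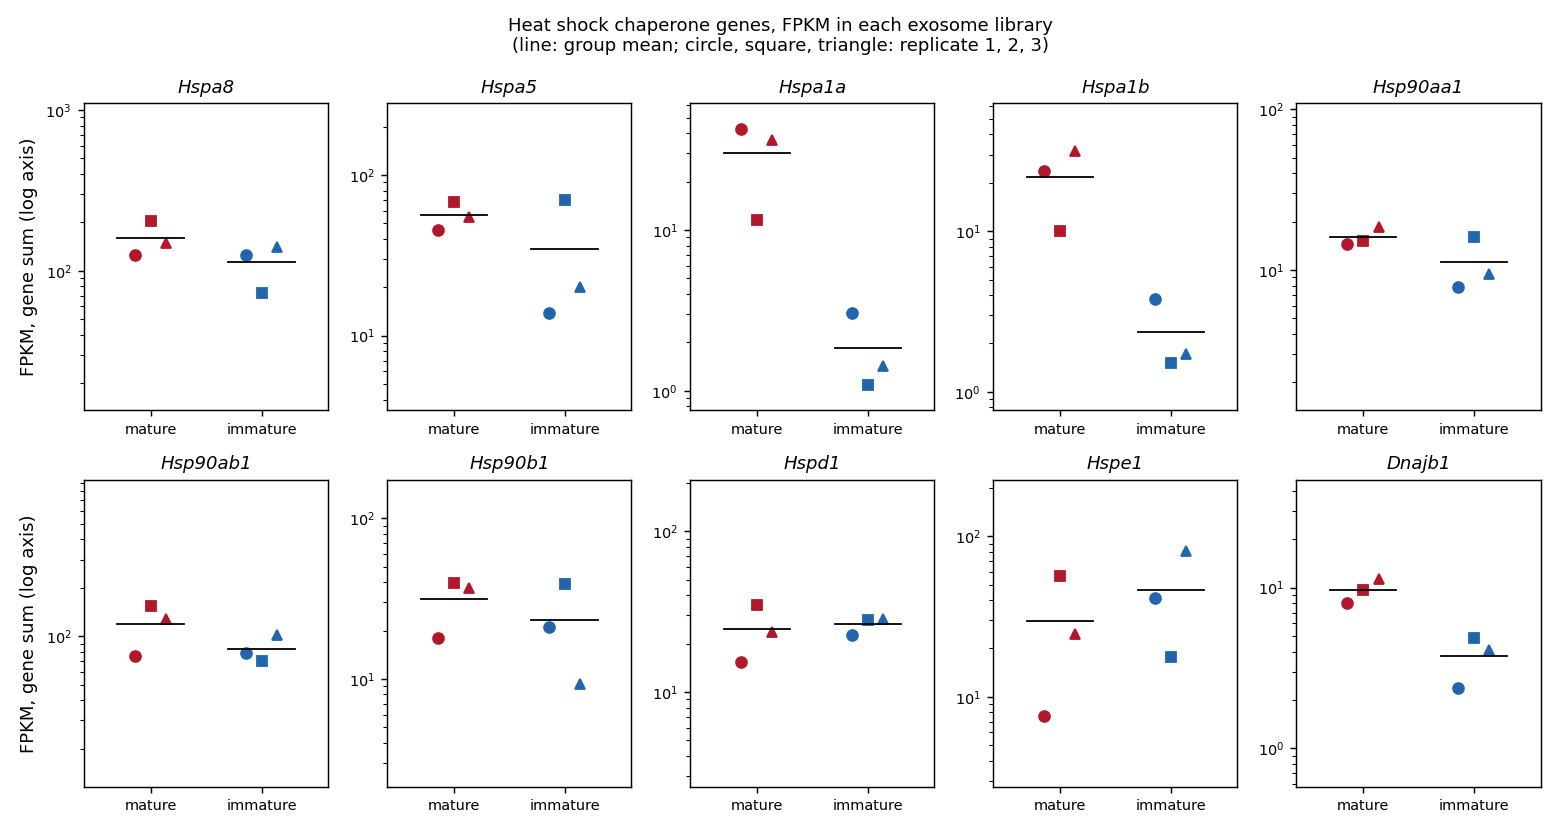
FPKM (gene sums, log axis) of each chaperone gene in the 3 mature and 3 immature exosome libraries, with a line at each group mean and a marker shape for each replicate number. For Hspa1a, Hspa1b and Dnajb1 every mature library lies above every immature one, from 11.5 to 42.9 against 1.09 to 3.04 FPKM for Hspa1a, and the other 7 genes overlap.

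The stress-inducible Hsp70 genes differed most. Hspa1a (ENSMUSG00000091971.3, chr17:34969190-34972156, minus strand, 1 listed transcript) encodes the Hsp70 that is scarce in resting cells and made on stress. It was at 42.9, 11.5 and 36.1 FPKM in mature libraries 1, 2 and 3, against 3.04, 1.09 and 1.44 FPKM in immature libraries 1, 2 and 3. Every mature value lay above every immature one, and mature library 2 was the lowest of its group. The means were 30.2 ± 16.5 and 1.85 ± 1.04 FPKM (SD, n = 3 each), a 16.3-fold ratio. On the log2(FPKM + 1) scale, where changes of low values come out too small, the difference was 3.32 (SE 0.58, 95% interval 2.02 to 4.61), at an unadjusted p of 0.000171 and a limma adjusted p of 0.0766. The groups stayed apart after median-of-ratios scaling, at 6.95 to 56.6 in mature and 1.28 to 3.54 in immature libraries. The log2 fold change was then 2.92 and the limma adjusted p 0.276. In a bulk library, fewer cells or vesicles of a type and less RNA in each cannot be told apart.

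Hspa1b (ENSMUSG00000090877.3, chr17:34956436-34959238, minus strand, 1 listed transcript), the neighbouring copy that encodes nearly the same Hsp70 protein, was at 23.7, 10.0 and 31.7 FPKM in mature and 3.78, 1.52 and 1.73 FPKM in immature libraries. It showed the same separation, and again mature library 2 was nearest to the immature group. The means were 21.8 ± 10.96 and 2.34 ± 1.25 FPKM (SD, n = 3 each), with a log2 fold change of 2.69 (SE 0.55, 95% interval 1.47 to 3.92, limma adjusted p = 0.118). Median-of-ratios scaling kept the groups apart, at 6.05 to 31.3 in mature and 1.54 to 4.40 in immature libraries (log2 fold change 2.28, limma adjusted p = 0.322). Reads of such near-identical copies can be shared, so the split between them is uncertain and they are not independent of each other. Summed as 1 gene, an alternative chosen after seeing the data, they reached 66.6, 21.6 and 67.8 FPKM in mature and 6.81, 2.61 and 3.17 FPKM in immature libraries (log2 fold change 3.27, limma adjusted p = 0.0776). Hspa1a made up 64.4%, 53.5% and 53.3% of that sum in mature libraries and 44.6%, 41.8% and 45.3% in immature libraries.

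Hspa1a moved in adjusted p with single libraries left out, but passed the threshold only without mature library 2. Without mature library 2 its log2 fold change was 3.88 and its limma adjusted p was 0.0329, the only setting of those tried in which any of the 10 genes passed, and without mature library 3 the adjusted p was 0.615. Mature library 2 also had the highest neutrophil and erythroid sums of the mature group, and the part of these in the shift was not tested. Without mature library 1 and immature library 2, the pair that stood apart in mitochondrially encoded transcripts, the fold changes of Hspa1a and Hspa1b were 2.78 and 2.39 (limma adjusted p = 0.0869 and 0.12).

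Dnajb1 (ENSMUSG00000005483.10, chr8:83608193-83612653, plus strand, 2 listed transcripts) encodes the stress-inducible Hsp40 that delivers clients to Hsp70. It was at 8.03, 9.73 and 11.3 FPKM in mature and at 2.38, 4.86 and 4.10 FPKM in immature libraries. The groups did not overlap, and immature library 1 was the lowest of all 6. The means were 9.68 ± 1.62 and 3.78 ± 1.27 FPKM (SD, n = 3 each), and the log2 fold change was 1.19 (SE 0.47, 95% interval 0.15 to 2.22, unadjusted p = 0.0286, limma adjusted p = 0.446). After median-of-ratios scaling immature library 2 stood at 7.38 and mature library 2 at 5.86, so that the groups overlapped.

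The constitutive cytosolic chaperones were the most abundant of the 10 and showed smaller differences. Hspa8 (ENSMUSG00000015656.17, chr9:40800984-40805200, plus strand) encodes Hsc70, the Hsp70 that cells make without stress. It was at 125, 205 and 149 FPKM in mature and at 125, 73.1 and 141 FPKM in immature libraries, ranking 160 to 251 and 176 to 273 of all genes. The groups overlapped, with a log2 fold change of 0.52 (SE 0.54, 95% interval -0.69 to 1.72, limma adjusted p = 0.797).

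Hsp90ab1 (ENSMUSG00000023944.14, chr17:45567775-45573271, minus strand), the constitutive cytosolic Hsp90, was at 75.7, 154 and 128 FPKM in mature and 78.9, 70.2 and 101 FPKM in immature libraries. Its log2 fold change was 0.47 (95% interval -0.70 to 1.63, limma adjusted p = 0.815), and mature library 1 lay inside the immature range. After median-of-ratios scaling it was nearly flat, at 87.8 to 100.02 in mature and 90.3 to 107 in immature libraries, and its fold change was then -0.04, while that of Hspa8 was 0.01.

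Hsp90aa1 (ENSMUSG00000021270.13, chr12:110690605-110696395, minus strand), the more stress-inducible cytosolic Hsp90, was at 14.6, 15.2 and 18.6 FPKM in mature and 7.88, 16.1 and 9.50 FPKM in immature libraries. Only immature library 2 reached the mature range, and the log2 fold change was 0.55 (95% interval -0.49 to 1.58, limma adjusted p = 0.736). For each of these 3 genes the interval holds both 0 and a log2 fold change of 1.

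**Figure D2:**
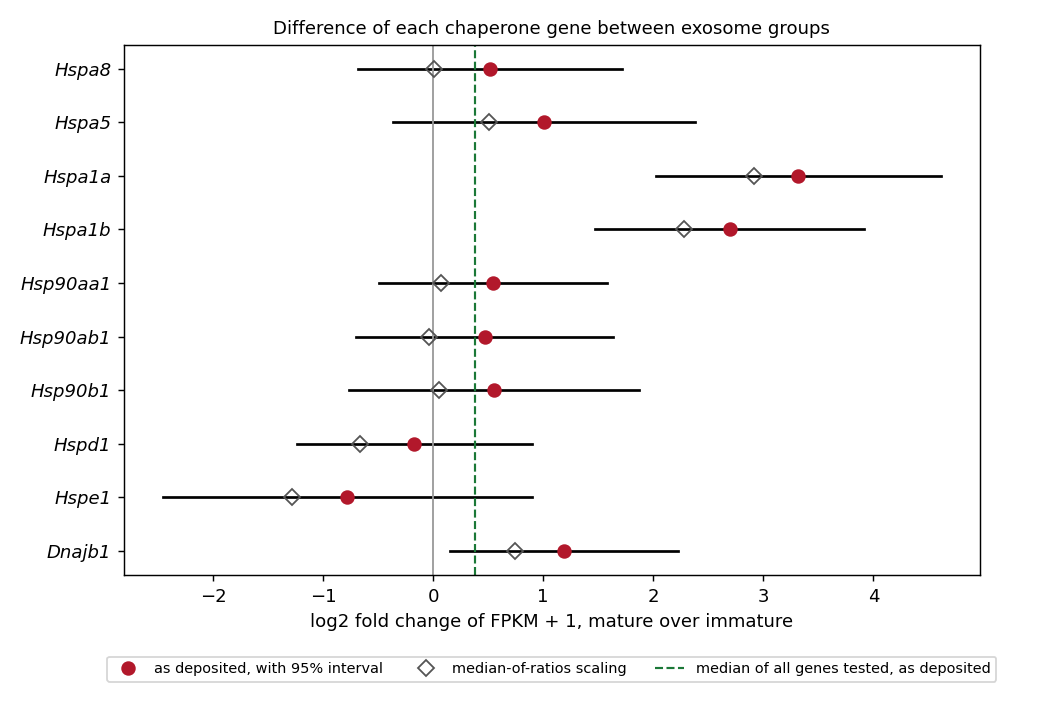
Log2 fold change of FPKM + 1, mature over immature, of each chaperone gene (filled circle, with its 95% interval from limma) and after median-of-ratios scaling (open diamond); the dashed line is the median of all genes tested, 0.38. The intervals of Hspa1a (2.02 to 4.61), Hspa1b and Dnajb1 lie above 0, the other 7 include it.

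Ratios within a family do not depend on how libraries are scaled. Hspa1a and Hspa1b together made up 34.8%, 9.53% and 31.3% of the summed FPKM of Hspa8, Hspa1a and Hspa1b in mature libraries, and 5.15%, 3.45% and 2.20% in immature libraries. The inducible share of cytosolic Hsp70 RNA was thus above the immature range in each mature library. For cytosolic Hsp90 the share of Hsp90aa1 was 16.2%, 9.01% and 12.6% in mature and 9.08%, 18.7% and 8.58% in immature libraries. Those groups overlapped, and the 2 highest shares belonged to mature library 1 and immature library 2, the libraries that stood apart.

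The 10 genes together reached 376, 603 and 515 FPKM in mature and 320, 321 and 397 FPKM in immature libraries. As a share of all summed FPKM that was 0.289%, 0.214% and 0.21% against 0.220%, 0.236% and 0.186%, so the groups overlapped, and without mature library 1 the mature share was the lower by a difference of -0.0022 percentage points. Hspa8 and Hsp90ab1 made up 53.3% to 59.4% of the 10-gene sum in mature and 44.6% to 63.8% in immature libraries. Hspa1a, Hspa1b and Dnajb1 made up 19.8%, 5.19% and 15.4% in mature and 2.87%, 2.33% and 1.83% in immature libraries.

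**Figure D3:**
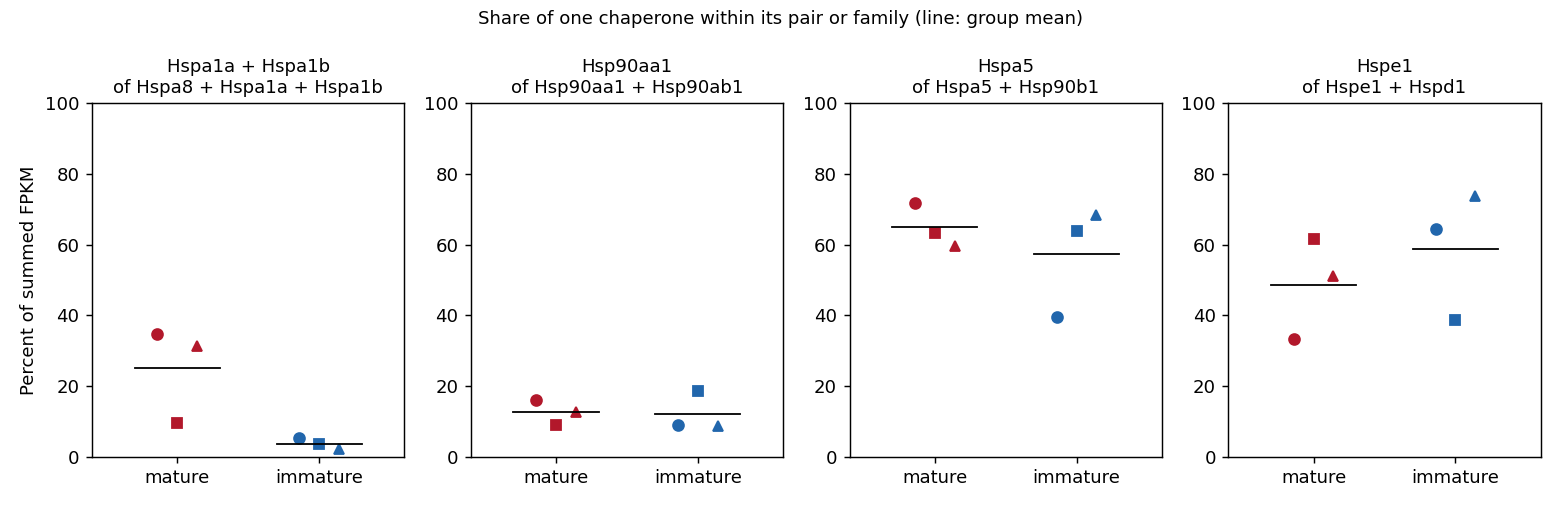
Share (percent of summed FPKM) of a chaperone gene or pair within its family in each library, with a line at the group mean. The share of Hspa1a and Hspa1b is 9.53% to 34.8% in mature and 2.20% to 5.15% in immature libraries; the other 3 shares overlap.

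The chaperones of the endoplasmic reticulum were set by single libraries. Hspa5 (ENSMUSG00000026864.13, chr2:34771970-34777547, plus strand) encodes BiP, the Hsp70 of that compartment and a sensor partner of the unfolded protein response. It was at 45.8, 68.0 and 54.7 FPKM in mature and 13.8, 69.4 and 20.2 FPKM in immature libraries. Immature library 2 was the highest of all 6 and the other 2 immature libraries the lowest, and the log2 fold change was 1.01 (SE 0.62, 95% interval -0.36 to 2.38, limma adjusted p = 0.629). With a library left out in turn it lay between 0.55, without immature library 1, and 1.67, without immature library 2 (limma adjusted p = 0.967 and 0.368).

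Hsp90b1 (ENSMUSG00000020048.13, chr10:86690840-86705509, minus strand, 1 listed transcript) encodes gp96, the Hsp90 of the same compartment, on which Toll-like receptors and integrins depend for folding. It was at 17.99, 39.3 and 36.9 FPKM in mature and 21.1, 39.0 and 9.33 FPKM in immature libraries. Again immature library 2 was at the top of its group, and the log2 fold change was 0.56 (95% interval -0.76 to 1.87, limma adjusted p = 0.803). With a library left out in turn it lay between 0.05, without immature library 3, and 1.02, without immature library 2. Hspa5 made up 71.8%, 63.4% and 59.7% of the pair in mature and 39.6%, 64.0% and 68.4% in immature libraries.

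The mitochondrial chaperonin genes had the lowest fold changes of the 10. Hspe1 (ENSMUSG00000073676.4, chr1:55088132-55091307, plus strand, 1 listed transcript) encodes Hsp10, the lid of the chaperonin. It was at 7.62, 56.2 and 24.7 FPKM in mature and 41.2, 17.7 and 80.4 FPKM in immature libraries, with a log2 fold change of -0.78 (SE 0.76, 95% interval -2.45 to 0.89, limma adjusted p = 0.774). The lowest value of each group came from mature library 1 and immature library 2. Ribosomal protein genes took 11.8%, 19.5% and 13.1% of summed FPKM in mature and 23.6%, 12.5% and 33.6% in immature libraries, the same order of libraries as for Hspe1 except that immature library 1 and mature library 2 changed places. The part of that difference between libraries in the Hspe1 result was not tested; with a library left out in turn the fold change lay between -1.43, without mature library 2, and -0.06, without mature library 1. It was -1.33 without immature library 2 and -0.61 without both libraries that stood apart. With median-of-ratios scaling of all 6 libraries it was -1.28. The scaled groups still overlapped, at 10.1 to 33.9 in mature and 26.8 to 71.7 in immature libraries.

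Hspd1 (ENSMUSG00000025980.14, chr1:55077835-55088243, minus strand, 3 listed transcripts) encodes Hsp60, which forms the barrel of the chaperonin, and lies head to head with Hspe1. It was at 15.3, 34.8 and 23.5 FPKM in mature and 22.8, 28.1 and 28.6 FPKM in immature libraries. The groups overlapped (log2 fold change -0.17, 95% interval -1.24 to 0.89, limma adjusted p = 0.943), and the sign turned to 0.12 without mature library 1. After median-of-ratios scaling all mature values of Hspd1 lay below all immature ones, 16.1 to 21.0 against 25.5 to 42.7, as did those of 6.07% of all genes. Although the genes share the promoter region printed above, Hspe1 made up 33.2%, 61.8% and 51.2% of the pair in mature and 64.4%, 38.6% and 73.8% in immature libraries.

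The listed transcripts of a gene did not always agree from library to library. Hspa8-201, the coding transcript whose coordinates span the listed gene, was at 121, 198 and 144 FPKM in mature and at 61.3, 68.8 and 17.5 FPKM in immature libraries. Its groups did not overlap, like 13.1% of all transcripts in that direction, and its log2 fold change of 1.82 had an unadjusted p of 0.0198 and a limma adjusted p of 0.503. It made up 96.7% to 96.9% of the gene in mature libraries, 94.2% in immature library 2, 48.8% in immature library 1 and 12.4% in immature library 3. In immature library 3 the coding transcript Hspa8-202 was at 113 FPKM, while it was listed at 0 in the other 5. In immature library 1 the processed transcript Hspa8-209 was at 62.7 FPKM, against 0 to 2.56 FPKM in mature libraries and 0 and 4.59 FPKM in immature libraries 2 and 3. FPKM is estimated per transcript by dividing reads among overlapping models, so these splits are uncertain, and the gene sum of Hspa8 overlapped between the groups. Over protein-coding transcripts alone, Hspa8 was at 125, 202 and 149 FPKM in mature and 62.8, 73.1 and 133 FPKM in immature libraries (log2 fold change 0.87, limma adjusted p = 0.617).

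Hspa5 was split likewise. Hspa5-202 made up 95.6%, 94.7% and 20.8% of the gene in mature and 29.8%, 93.0% and 93.1% in immature libraries, with Hspa5-201 as the remainder. Hspa5-201 led in 1 library of each group, mature library 3 and immature library 1. Hsp90ab1-201, Hsp90aa1-202 and Dnajb1-201 carried at least 95.2%, 87.8% and 80.6% of their genes in every library, and Hspd1-201 carried 68.6% to 86.2%. Of the 24 transcripts 17 passed the filter and 0 were called by limma, where 0.0751% of 15972 transcripts were called; at an unadjusted p under 0.05 the higher ones were 4 (Hspa8-201, Hspa1a-201, Hspa1b-201 and Dnajb1-201) and the lower ones 0, against 7.39% and 0.682% of all transcripts.

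**Figure D4:**
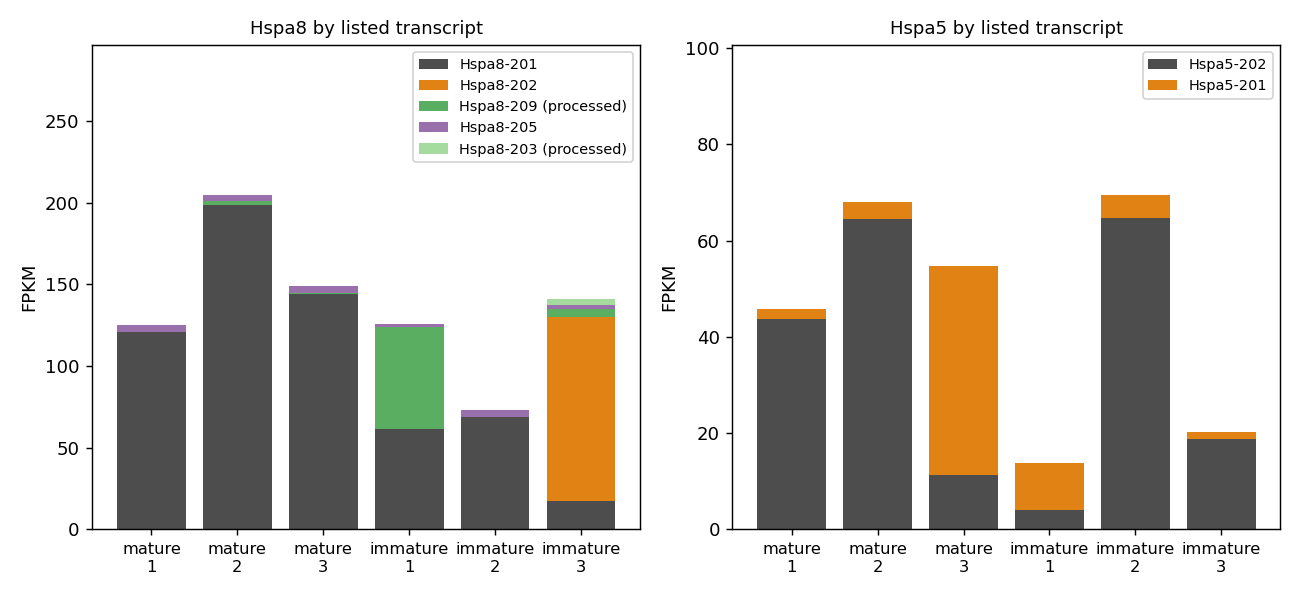
FPKM of Hspa8 (left) and Hspa5 (right) in each library, stacked by listed transcript. Hspa8-201 makes up nearly the whole bar in the mature libraries and in immature library 2, while Hspa8-209 (62.7 FPKM) and Hspa8-202 (113 FPKM) fill much of the bars of immature libraries 1 and 3.

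Of the wider chaperone network, 9 lists held 132 genes, of which 125 were listed and 120 tested. None of the 120 passed limma over all genes (0 higher, 0 lower), and at an unadjusted p under 0.05 15 were higher and 0 lower, 12.5% against 9.52% of all genes. Their median log2 fold change was 0.47, against 0.38 for all genes. With all mature above all immature values there were 30 (25.0%, against 16.7% of all genes), and 11 after median-of-ratios scaling (9.17%, against 7.6%). That scaling took the number of genes wholly above to 4 in the Hsp70 list, against 6 before it, and to 1 against 7 in the Hsp90 co-chaperone list. It went to 0 against 3 in the unfolded protein response list and to 0 against 6 in the mitochondrial list. Of the genes named below, Hsph1, Stub1, St13, Dnajb2, Fkbp4, Sdf2l1 and Hsf1 kept their groups apart under it, and Dnajb11 had them apart only with it. The groups of Bag3, Bag6, P4hb, Ppib, Fkbp8, Unc45a, Ddit3, Ppp1r15a, Clpp, Lonp1 and Ubb then overlapped. In the other direction 1 gene, Ero1lb, had all mature below all immature values as deposited, like 0.642% of all genes. With the scaling Ero1lb, Hspa4, Ptges3, Pfdn5 and Atf6 did, like 6.07% of all genes. The counts of 15, 30 and 11 also include Hspb1. It was listed at 0 in every immature library, so its groups had to lie apart with or without scaling. No list was tested as a set, and the lists are described by the values of their members. The count of each list at an unadjusted p under 0.05 stands beside the same 9.52% of all genes. By list the share ran from 0% (CCT and prefoldin) through 7.14% (J-domain and endoplasmic reticulum lists) and 14.3% (Hsp70 and mitochondrial lists) to 50% of only 4 heat shock factor genes.

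The Hsp70 list held the Hsp70 family, its nucleotide exchange factors, which release ADP from Hsp70, and other Hsp70 partners such as Stub1 and St13. Of its 14 tested genes 2, Hsph1 and Stub1, were higher at an unadjusted p under 0.05, as were 9.52% of all genes. The median log2 fold change of the list was 0.73. Hsph1, the inducible Hsp110 exchange factor, was at 7.18, 6.79 and 9.73 FPKM in mature and 1.88, 1.72 and 1.63 FPKM in immature libraries (log2 fold change 1.69, limma adjusted p = 0.24). Its groups did not overlap. The most abundant members, Bag1, Bag6 and St13, averaged 49.7, 27.2 and 22.6 FPKM in mature and 36.9, 14.5 and 10.8 FPKM in immature libraries. Bag3, the exchange factor gene that heat shock factor 1 induces, was at 6.85 to 8.91 FPKM in mature and 2.65 to 4.46 FPKM in immature libraries (limma adjusted p = 0.524).

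Of 14 tested cytosolic J-domain genes, Dnajb2 alone had an unadjusted p under 0.05 (log2 fold change 1.81, limma adjusted p = 0.348), and the list median was 0.29. Dnajb6, Dnajc5 and Dnaja2, the most abundant, averaged 42.6, 33.9 and 22.0 FPKM in mature and 30.1, 22.5 and 23.5 FPKM in immature libraries. Of 16 Hsp90 co-chaperones, which steer clients and the ATP cycle of Hsp90, Fkbp4, Fkbp8 and Unc45a were higher at an unadjusted p under 0.05, with a list median of 0.49. Fkbp8 was at 43.1, 55.9 and 87.9 FPKM in mature and 25.8, 22.3 and 19.9 FPKM in immature libraries (limma adjusted p = 0.401), while Ptges3, the p23 co-chaperone gene, averaged 21.6 and 22.9 FPKM. Fkbp5, the third most abundant, ranged over 3.53 to 41.8 FPKM in mature and 0.914 to 43.2 FPKM in immature libraries.

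The 14 genes of the CCT chaperonin, which folds actin and tubulin, and of its partner prefoldin had a median of 0.28 and 0 members at an unadjusted p under 0.05. Tcp1, Pfdn5 and Cct2 averaged 66.8, 53.0 and 54.2 FPKM in mature and 80.7, 58.0 and 48.7 FPKM in immature libraries. Tcp1 was lowest in mature library 1 (23.6 FPKM) and immature library 2 (25.2 FPKM), as Hspe1 was.

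In the endoplasmic reticulum, 28 chaperone and folding enzyme genes had a median of 0.44, with Dnajb11 and Sdf2l1, partners of BiP, higher at an unadjusted p under 0.05 (limma adjusted p = 0.442 for both). Sdf2l1 was at 18.8, 29.2 and 33.4 FPKM in mature and 10.4, 9.22 and 13.7 FPKM in immature libraries. Calr, P4hb and Ppib, the genes of calreticulin, protein disulfide isomerase and cyclophilin B, averaged 152, 139 and 123 FPKM in mature and 85.4, 67.8 and 78.8 FPKM in immature libraries. Among 12 genes of the unfolded protein response, with a median of 0.51, Ddit3 and Ppp1r15a were higher at an unadjusted p under 0.05. Ddit3, which encodes the stress transcription factor CHOP, was at 28.6, 21.0 and 30.7 FPKM in mature and 11.004, 11.1 and 5.17 FPKM in immature libraries (log2 fold change 1.51, limma adjusted p = 0.348). Atf4, Xbp1 and Edem1 averaged 110, 31.0 and 25.4 FPKM in mature and 66.9, 23.6 and 17.0 FPKM in immature libraries.

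Of 14 mitochondrial chaperone and protease genes, with a median of 0.51, Clpp and Lonp1, which encode matrix proteases, were higher at an unadjusted p under 0.05. Hspa9, the mitochondrial Hsp70 gene, averaged 27.7 and 23.3 FPKM, Pam16 15.2 and 10.9 FPKM, and Hscb 11.8 and 8.93 FPKM in mature and immature libraries. Of 4 tested small heat shock protein genes, Hspb1, the gene of Hsp27 (Hsp25 in mice), had 1.44, 2.18 and 4.45 FPKM in mature libraries and was listed at 0 in every immature one. It is the gene of that list with an unadjusted p under 0.05, but it passed the filter on low values through the mature libraries alone and so had to differ, and its p is not read. Cryab was at 9.10, 1.14 and 4.51 FPKM in mature libraries and at 1.88 and 3.63 FPKM and listed at 0 in immature libraries 1, 2 and 3, and Hspb11 averaged 5.20 FPKM in mature and 3.95 FPKM in immature libraries.

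Of 4 tested genes of heat shock factors and their regulators, Hsf1 and Ubb were higher at an unadjusted p under 0.05, as were 9.52% of all genes. Hsf1, the heat shock factor itself, was at 1.58, 2.55 and 4.84 FPKM in mature and 0.639, 0.547 and 0.88 FPKM in immature libraries (log2 fold change 1.16, limma adjusted p = 0.447). Ubb, a ubiquitin gene, was at 458, 509 and 653 FPKM in mature libraries, against 181, 247 and 101 FPKM in immature libraries (limma adjusted p = 0.4). Hsbp1, a heat shock factor binding protein gene, averaged 30.2 and 26.1 FPKM in mature and immature libraries. Genes in these lists other than the 3 most abundant of each, among them Hsph1, Bag3, Hsf1 and those named for their unadjusted p, were chosen after their values were seen.

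**Figure D5:**
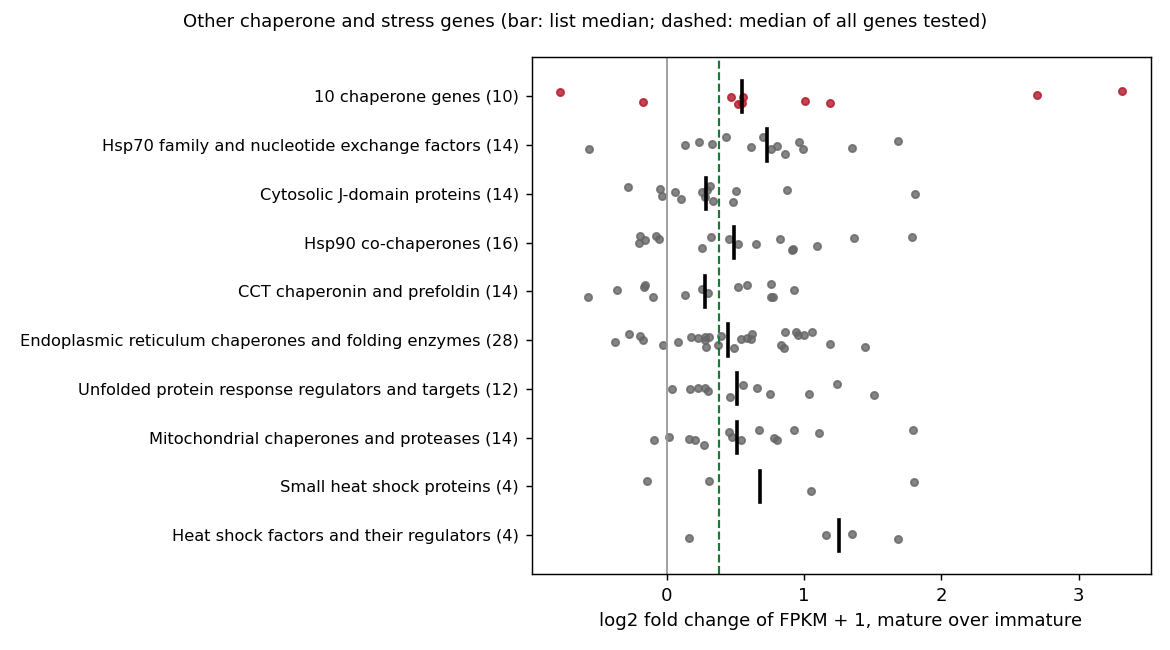
Log2 fold change of FPKM + 1, mature over immature, of the 10 chaperone genes (red) and of 9 further lists (grey; number tested in brackets); bars are list medians and the dashed line is the median of all genes tested, 0.38. Hspa1a (3.32) and Hspa1b (2.69) lie beyond every gene of the other lists, whose highest value is 1.81.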

How the data were processed

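FPKM values, a single value for each transcript in each library, are what the authors deposited. StringTie, STAR 2.5.2b, HISAT2 2.0.5 and cutadapt appear, without their roles, in the submitters' processing notes, which also give hg19, a human build. The identifiers are of mouse, and the listed positions overlapped those of RefSeq on GRCm38 for 99.81% of 11331 genes and for all 10 chaperone genes, so they were read on GRCm38. Every listed transcript reached 0.500024 FPKM or more in at least 1 library.

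FPKM was summed over the transcripts of a gene identifier. Genes at 0.5 FPKM or more in at least 3 of 6 libraries entered limma 3.58.1 under R 4.3.3 (trend and robust options) on log2(FPKM + 1), without further scaling or a replicate block. Transcripts were tested likewise. Benjamini-Hochberg adjustment was over all features tested. Groups and replicate numbers came from the sample titles. Relative depth came from 5787 genes with a single transcript, by the ratios most often shared (within a log tolerance of 0.005) among values under 1 FPKM in pairs of libraries; 202 of 13649 ratios fell there, so it is an estimate. Precision is limited by 3 libraries a group.

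The 10 genes and the lists were chosen with earlier results of these data known. Named in each list were genes past the threshold, then the most abundant, up to 3. One gene that this rule names is not reported here. Alternatives were other pseudocounts, filters and scalings, a replicate block, libraries left out and other ways to sum transcripts.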

Additional observations from a re-analysis of the deposited data

How the results depend on the processing

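Of the 10 chaperone genes, 0 passed limma under 20 alternatives each, except Hspa1a without mature library 2 (3.88, adjusted p 0.0329, within 2.98 to 3.88 over the libraries left out in turn). The sign turned for Hspa8 with upper-quartile scaling (-0.018), for Hsp90ab1 with median-of-ratios, upper-quartile and quantile scaling (-0.039, -0.066 and -0.058), and for Hspd1 without mature library 1 (0.12; -0.45 to 0.12 over libraries left out) or without that and immature library 2 (0.16). The adjusted p of Hspa1a lay between 0.0329 and 0.615 and its fold change between 2.23 and 3.88 (2.78 without both libraries). Over libraries left out, fold changes were 0.23 to 0.70 for Hspa8, 0.35 to 0.82 for Hsp90aa1, 0.26 to 0.76 for Hsp90ab1, 2.37 to 3.15 for Hspa1b and 0.95 to 1.35 for Dnajb1. With the most abundant transcript alone the fold change of Hspa8 was 1.82. The cause of these shifts was not tested.

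The 19 genes called became 9 with a pseudocount of 0.1, 12 with median-of-ratios scaling, 6 with rescaling to a fixed sum, 10 with the most abundant transcript alone, 1 to 27 with a library left out, the lowest without mature library 3, and 73 without both mature 1 and immature 2. Left-out libraries were fitted over the genes tested with all 6. The 12 transcripts called became 6 with a pseudocount of 5 or any other scaling, 7 with the stricter filter, 0 to 7 with a library left out and 0 without both. With the replicate number as a block, 5 genes and 0 transcripts were called and Hspa1a had an adjusted p of 0.127; deviations of same-numbered libraries correlated at -0.03, -0.45 and -0.13, so the numbers were not taken as pairs.

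The 9 further lists had 0 members called throughout. Relative to all genes, the Hsp90 co-chaperone median of 0.11 became 0.23 with the stricter filter, -0.015 with quantile normalization, -0.037 without both libraries and 0.04 to 0.37 with a library left out. That of the endoplasmic reticulum list (0.06) became 0.37 without both and -0.10 to 0.33, that of the CCT and prefoldin list (-0.10) 0.0077 without both and -0.34 to -0.02, and that of the heat shock factor list (0.87) 0.21 with no filter and 0.50 to 1.24. The share of summed FPKM of the 10 genes, 0.0234 percentage points higher in the mature group, differed by 0.0627 with the most abundant transcript alone, by 0.0089 without both libraries and by -0.0022 to 0.0373 with a library left out, the sign turning without mature library 1.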

Other observations

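The gene whose profile over the 6 libraries was nearest to that of Hspa8, among 2665 genes with a mean of at least 10 FPKM, was Plekhb2, at a root mean square difference of 0.11 on the log2 scale after median-of-ratios scaling and centring. March2, Bag1, Timm23 and Kcnab2 followed at 0.13, 0.14, 0.14 and 0.14. Bag1 encodes an Hsp70 nucleotide exchange factor. Among the 10 chaperone genes Hspa8 and Hsp90ab1 were nearest to each other (0.23), as were Hspa1a and Hspa1b (0.39), and the gene nearest to Dnajb1 was Hsp90aa1 (0.39). Hspe1 was the farthest from any other, its nearest being Hspd1 at 0.84. These distances describe 6 libraries and were not tested.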
